A study of Rattus norvegicus with 9 samples.

Results

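The potassium channel genes were taken as every gene with a symbol beginning Kcn, apart from Kcnj3, Kcnj6 and Kcnj9, together with Dpp6 and Dpp10, which encode partners of Kv4 channels. They numbered 74 of the 14217 genes named on the array and were measured by 121 of its 31042 rat probe sets. RNA came from the thalamus of male Wistar rats given as 5 weeks old, 4 of them eating solid chow and 5 eating powdered feed, and each group is named here by its feed. All rats were 3 weeks old when the feeding scheme began, ate powder for the first 2 days and then either chow or powder for 8 days. The labels mention 10 rats and 9 arrays were analysed, 1 for each labelled sample. They do not say which animal gave which sample, so p-values measure the spread between samples, part of which may be technical.

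Potassium channels let potassium leave the cell and thereby set the resting potential, end the action potential and govern how quickly a neuron can fire again. Each channel is built from pore-forming subunits, often joined by auxiliary subunits that alter gating or transport to the membrane. In the thalamus they are known for shaping the switch of relay neurons between burst and tonic firing and the fast spiking of neurons in the reticular nucleus.

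The deposited values were log2 expression values, 1 for each probe set and array, and a gene was represented by its probe set of highest mean over the 9 arrays. For 54 of the 74 genes the 9 values of that probe set lay within 0.01 log2 units of each other (median range 0.000481), and such probe sets are called narrow below. For the other 20 genes, called wide, the range was 0.13 to 0.85 (median 0.52). Over the whole array 84.4% of rat probe sets were narrow. A difference on a narrow probe set can pass a test but has almost no size, so the 2 kinds are given apart.

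The tissue and the arrays were checked with marker genes. All 8 listed markers of thalamic relay neurons were on wide probe sets, and their mean log2 value was 9.78 on chow array 1, 10.18 to 10.45 on the other chow arrays and 10.28 to 10.39 on the powder arrays. The 5 wide striatal markers (of 6 measured and 7 listed) averaged 9.03 on chow array 1, 7.82 to 8.05 on the other chow arrays and 7.81 to 7.95 on the powder arrays. The 5 inhibitory neuron markers averaged 9.81 on chow array 1, 9.20 to 9.42 on the other chow arrays and 8.97 to 9.39 on the powder arrays. Their chow minus powder differences were 0.60 ± 0.20 for Gad2, a GABA synthesis enzyme gene (limma, adjusted p = 0.0536), 0.50 for Sst and 0.25 for Slc32a1. Gad1 was at 0.08 and Pvalb at -0.05. Unlike the list mean, Pvalb was lowest on chow array 1, at 9.07 against 9.34 to 9.68 on the other arrays. By its mean, chow array 1 thus stood apart in all 3 of these lists, none of whose wide markers was called. Spread between arrays was not confined to chow array 1. The 4 wide hypothalamic markers averaged 9.68 on chow 1 and 9.72 on chow 4, against 8.56 and 8.41 on the other chow arrays. On the powder arrays they averaged 7.54, 8.31, 9.40, 9.68 and 8.21. Over all 12 marker lists, 3 of 39 wide markers were called lower and 0 higher, against 40.2% and 9.03% of all wide genes. These were Prox1, listed for hippocampus and cortex (-0.35, adjusted p = 0.0112), Flt1 of endothelium (-0.41, adjusted p = 0.0363) and Mobp of oligodendrocytes (-0.13, adjusted p = 0.0439). The part of tissue composition in the channel results was not tested. For 12 of the 20 wide channel genes chow array 1 was the lowest of all 9 arrays, and for 4 it was the highest. Among all 2414 wide genes of the array it was the lowest for 42.2% and the highest for 18.6%. In whole tissue, fewer cells of a type and less RNA in each cell cannot be told apart.

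**Figure D1:**
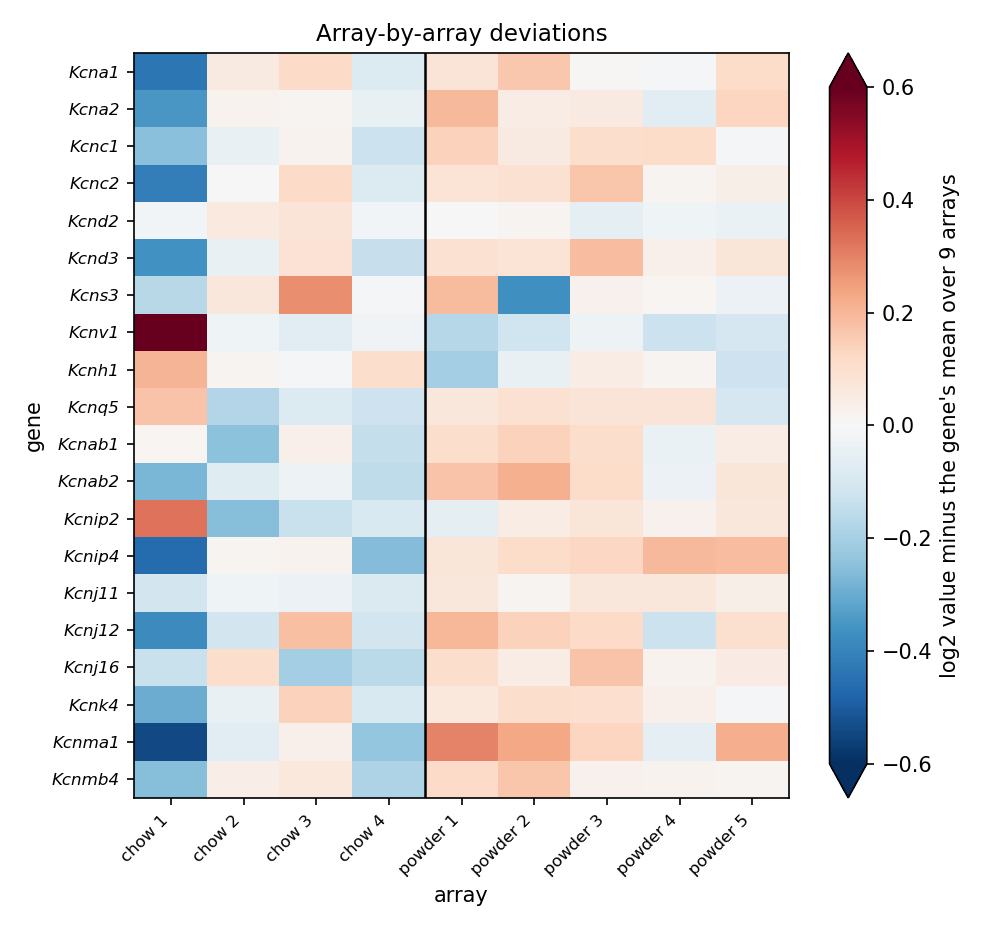
Deviation of each log2 value from its gene's mean over the 9 arrays, for the 20 wide potassium channel genes (rows) on the chow and then the powder arrays (columns); colours saturate at 0.6 log2 units. Chow array 1 carries the deepest colours, lowest of 9 for 12 genes and highest of 9 for 4, with Kcnv1 beyond the scale at 0.673.

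Which potassium channel genes differed between feeding on chow and feeding on powder was asked with limma, fitted over all 14217 genes with Benjamini-Hochberg adjustment, and an adjusted p under 0.05 was called. Of the 20 wide genes, 3 were lower under chow and 0 were higher. Those 3 were Kcnj11, an inward rectifier, Kcnab2, an auxiliary subunit of Kv1 channels, and Kcnc1, a pore subunit of fast-spiking neurons. Among all 2414 wide genes 40.2% were called lower and 9.03% higher, and the 3 of 20 are a smaller share than the first. At an unadjusted p under 0.05, 8 of the 20 were lower and 0 higher, against 49.0% and 12.5% of all wide genes. On sign alone 16 of the 20 were lower and 4 higher, with a median difference of -0.16, against 72.3% lower and a median of -0.12 over all wide genes. The count of wide genes called lower moved by over 1.5 times with single arrays left out, while that of genes called higher stayed at 0. The lower genes numbered 1 without chow 4, powder 1, powder 2 or powder 3, 2 without chow 1 or powder 5, and 7 without chow 3.

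**Figure D2:**
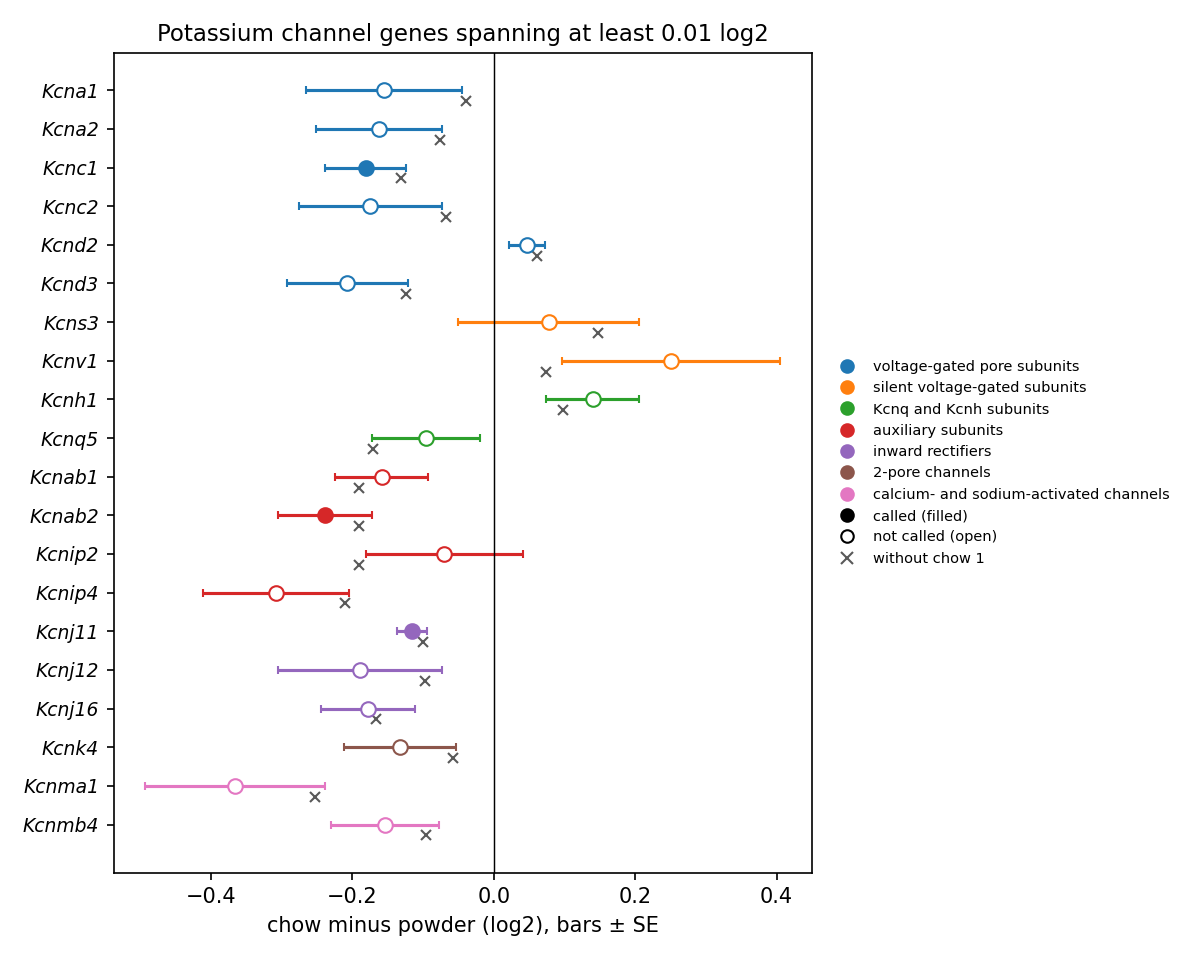
Difference in log2 value, chow minus powder, for the 20 wide potassium channel genes by family, with bars of ± SE from limma; filled points passed an adjusted p under 0.05 and crosses give the value without chow array 1. The 3 filled points, Kcnc1, Kcnab2 and Kcnj11, lie below 0, as do 13 of the open ones.

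Kcnj11 encodes Kir6.2, the pore of the channel that closes when ATP is plentiful and so links membrane potential to metabolism. Its log2 values were 8.02, 8.11, 8.10 and 8.05 under chow, against 8.20, 8.15, 8.20, 8.20 and 8.17 under powder. All 4 chow arrays lay below all 5 powder arrays. That held for 2 of the 20 wide channel genes, against 37.9% of all wide genes, and the opposite order for 0 of the 20, against 8.29%. The difference was -0.12 ± 0.021 (log2, SE; 0.923-fold, adjusted p = 0.00797), and it stayed called with any single array left out (adjusted p from 0.0118 to 0.0216). The probe set of highest mean carried this difference, and the suffix of its platform ID marks probes shared by several transcripts, so other transcripts may add to its signal. The third Kcnj11 probe set by mean, a narrow one, was called higher (difference 0.00164, adjusted p = 0.0393 in the fit over probe sets), and the second, also narrow, was not called. With the median of its 3 probe sets as the value, Kcnj11 was at -0.000129 and not called (adjusted p = 0.287).

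The ATP-sensitive channel is completed by a sulfonylurea receptor, encoded by Abcc8 or Abcc9. Abcc9 stood at 7.81, 8.14, 8.27 and 8.14 under chow, against 8.43, 8.32, 8.34, 8.36 and 8.40 under powder. Every chow array was below every powder array, and the difference was -0.28 ± 0.086 (adjusted p = 0.0407). The call was lost without any 1 of 7 arrays, all but chow 1 and chow 3, with adjusted p up to 0.0851. Abcc8 was narrow and not called (-0.000123, adjusted p = 0.202). The companion Kir6 pore gene, Kcnj8, was narrow and not called.

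Kcnab2 encodes Kv beta 2, a cytoplasmic subunit that helps carry Kv1 channels into axons. It stood at 9.63, 9.83, 9.87 and 9.75 under chow, against 10.07, 10.11, 10.01, 9.87 and 9.97 under powder. The groups met at chow 3 and powder 4. The difference was -0.24 ± 0.066 (0.847-fold, adjusted p = 0.0308). It was not called without any 1 of 6 arrays, chow 1, chow 4, powder 1, powder 2, powder 3 and powder 5, and was -0.19 without chow 1 (adjusted p = 0.0622). The 3 further probe sets of Kcnab2 were narrow and not called.

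Kcnc1 encodes Kv3.1, which repolarises the membrane so rapidly that a neuron can fire at high rates. Its values were 10.05, 10.25, 10.32 and 10.17 under chow, against 10.43, 10.35, 10.40, 10.41 and 10.29 under powder. Powder 5 lay below the highest chow array, chow 3. The difference was -0.18 ± 0.057 (0.882-fold, adjusted p = 0.0457), and it kept an adjusted p under 0.05 only without chow 3 or without powder 5. Without chow 1 Kcnc1 was at -0.13 (adjusted p = 0.074). Kcnc1 had 1 probe set.

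**Figure D3:**
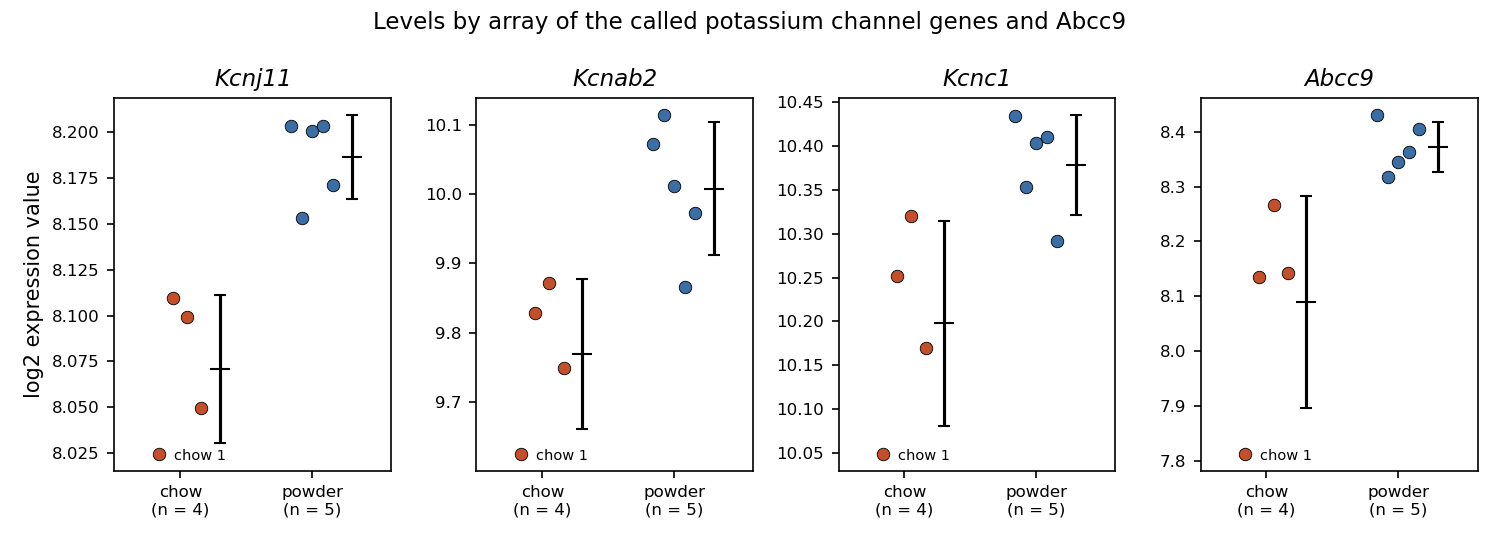
Log2 expression values of Kcnj11, Kcnab2, Kcnc1 and the sulfonylurea receptor gene Abcc9 on each chow (left) and powder (right) array, with mean ± SD beside the points; the vertical axes do not start at 0. Chow array 1 is the lowest point in each panel, and the groups overlap for Kcnab2 and Kcnc1 but not for Kcnj11 and Abcc9.

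Kcnc1 and Kcnab2, which were lower together, start from upstream sequences of unlike composition. Both are shown because they are the wide called genes with a RefSeq promoter entry. Each run is the 250 bases before the start of the gene in build GRCr8, from RefSeq, with the GC box GGGCGG (either strand) in capitals. Kcnc1 lies on the plus strand at chr1:106038997-106039246 and Kcnab2 on the minus strand at chr5:168270761-168271010.
Kcnc1: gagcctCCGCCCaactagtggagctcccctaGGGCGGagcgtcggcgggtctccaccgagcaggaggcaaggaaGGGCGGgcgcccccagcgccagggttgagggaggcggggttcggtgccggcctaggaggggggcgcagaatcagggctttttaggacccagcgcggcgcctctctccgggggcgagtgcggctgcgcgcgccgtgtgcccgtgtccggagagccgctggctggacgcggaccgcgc
Kcnab2: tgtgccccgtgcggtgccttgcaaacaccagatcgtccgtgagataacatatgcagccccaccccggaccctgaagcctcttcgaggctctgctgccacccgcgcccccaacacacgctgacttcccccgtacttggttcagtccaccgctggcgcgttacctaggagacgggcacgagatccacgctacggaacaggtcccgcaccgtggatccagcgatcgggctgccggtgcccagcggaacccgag
The Kcnc1 run holds 3 GC boxes and 30 CpG sites at 74.4% G and C, and the Kcnab2 run holds 0 GC boxes and 24 CpG sites at 65.2%. Of the 74 channel genes, 52 matched an entry, Kcnj11 not among them, and 33 of their 59 promoters (55.9%) held the box, against 30.5% of all 33469 promoters of that length. Those 33469 belong to 27457 genes, not only the genes named on the array, so the shares come from unlike sets. A match is a run of letters, and whether any factor binds there was not measured.

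Among the voltage-gated pore subunits, 6 of 13 genes were wide, 5 of them with a negative difference and 1 called, Kcnc1. Kv1 subunits hold back firing near the start of the axon. Kcna1 stood at 9.78, 10.27, 10.33 and 10.13 under chow, against 10.29, 10.38, 10.22, 10.20 and 10.33 under powder (-0.16 ± 0.11, adjusted p = 0.301), and its difference was -0.04 without chow 1. Kcna2 averaged 10.58 ± 0.175 on the 4 chow arrays and 10.74 ± 0.0979 on the 5 powder arrays (SD), with overlap, and its difference was -0.16 ± 0.089 (adjusted p = 0.189), or -0.08 without chow 1. Both fell short of the threshold, with chow 1 the lowest array in each.

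Kcnc2, the Kv3.2 gene prominent in thalamic and fast-spiking neurons, stood at 11.27, 11.69, 11.80 and 11.61 under chow, against 11.77, 11.78, 11.85, 11.70 and 11.72 under powder (-0.17 ± 0.10, adjusted p = 0.211), and at -0.07 without chow 1. Of the Kv4 subunits, which carry the transient current that delays spikes, Kcnd3 had a difference of -0.21 ± 0.086 (adjusted p = 0.0977), from averages of 9.22 ± 0.189 on the chow arrays and 9.42 ± 0.0571 on the powder arrays (SD). It was -0.12 without chow 1 and was called without chow 3 (-0.27, adjusted p = 0.0369). Kcnd2 differed by 0.05 ± 0.025 (adjusted p = 0.176), with both groups between 10.22 and 10.35. Kcnd2 was the 1 wide pore subunit of this family with a positive sign.

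Kv4 channels work in complexes with KChIP proteins and with the membrane proteins DPP6 and DPP10. Kcnip4, one KChIP gene, stood at 9.93, 10.41, 10.41 and 10.13 under chow, against 10.47, 10.50, 10.52, 10.59 and 10.58 under powder. The groups did not overlap, yet the chow arrays were widely spread and the difference of -0.31 ± 0.10 was just short of a call (adjusted p = 0.0548). It was called without chow 2, without chow 3 and under quantile normalization, subtraction of array medians, array weights or removal of narrow probe sets (adjusted p from 0.0204 to 0.048). Those were 2 of the 9 fits with 1 array left out, where adjusted p reached 0.118. Without chow 1, its lowest array, Kcnip4 was at -0.21 and not called (adjusted p = 0.0734). Kcnip2 was at 8.84 on chow 1, at 8.26, 8.38 and 8.43 on the other chow arrays and at 8.46 to 8.59 under powder. With chow 1 its difference was -0.07 ± 0.11 (adjusted p = 0.643), and without chow 1 it was -0.19 ± 0.046 and called (adjusted p = 0.0309). Kcnab1, a further Kv1 beta subunit, had a difference of -0.16 ± 0.066 on its leading probe set (adjusted p = 0.0988).

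Of 12 inward rectifier genes, 3 were wide, all with negative differences. Besides Kcnj11 they were Kcnj16, whose Kir5.1 subunit pairs with Kir4.1 in glia (-0.18 ± 0.067, adjusted p = 0.0761), and Kcnj12, the Kir2.2 gene (-0.19 ± 0.12, adjusted p = 0.234, and -0.10 without chow 1). Kcnj16 was at 8.95, 9.19, 8.88 and 8.92 under chow, against 9.19, 9.13, 9.26, 9.11 and 9.14 under powder, so 3 of the 4 chow arrays lay below all powder arrays. It was called without chow 2 (-0.25, adjusted p = 0.0113). Kcnj10, the gene of its glial partner Kir4.1, was narrow and not called.

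Calcium-activated channels of large conductance, called BK, hasten repolarisation when calcium enters. Kcnma1, their pore gene, stood at 8.05, 8.53, 8.62 and 8.36 under chow, against 8.89, 8.82, 8.72, 8.53 and 8.81 under powder on its leading probe set. That difference, -0.37 ± 0.13, was the most negative of the 74 genes but was not called (adjusted p = 0.0607). Kcnma1 was called in 2 of the 9 fits with 1 array left out, where adjusted p reached 0.12. Those were without chow 3 (-0.44, adjusted p = 0.0412) and without powder 4 (-0.42, adjusted p = 0.0484). Without chow 1, its lowest array, it was at -0.25 and not called (adjusted p = 0.0963). It passed under 4 other settings, with quantile normalization, array medians subtracted, array weights or narrow probe sets left out (adjusted p from 0.0229 to 0.0455). Kcnmb4, the neuronal BK beta subunit, averaged 8.95 ± 0.16 on the chow arrays and 9.10 ± 0.069 on the powder arrays (SD), a difference of -0.15 ± 0.076 (adjusted p = 0.154), or -0.10 without chow 1. The small-conductance channel genes Kcnn1 and Kcnn3, which give the afterhyperpolarisation, were narrow and not called.

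The other wide genes were not called. Kcnk4, the gene of the 2-pore background channel TRAAK, had a difference of -0.13 ± 0.08 (adjusted p = 0.226), which was -0.06 without chow 1 and was called without chow 3 (-0.20, adjusted p = 0.0478). Kcnq5, a subunit of the M current that restrains repetitive firing, was at -0.10 ± 0.076 (adjusted p = 0.352), or -0.17 without chow 1 (adjusted p = 0.051). Kcnh1, an ether-a-go-go channel, was at 0.14 ± 0.065 (adjusted p = 0.133). The silent subunit genes, which only modify other Kv channels, were Kcns3 (0.08 ± 0.13, adjusted p = 0.655) and Kcnv1 (0.25 ± 0.15, adjusted p = 0.234). Kcnv1 was at 7.35 on chow 1, between 6.61 and 6.65 on the other chow arrays and between 6.50 and 6.64 under powder, and its difference without chow 1 was 0.07.

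Several channel genes gave opposite answers on different probe sets. Of the 30 genes with more than 1 probe set, 7 had at least 2 wide ones, and in 5 of these (Kcnab1, Kcnc2, Kcnip2, Kcnip4 and Kcnma1) the wide probe sets differed in sign. In the fit over all 31042 probe sets, 3 wide channel probe sets were higher under chow and 3 lower, out of 33. The background among all 4849 wide probe sets was 16.1% higher and 38.8% lower. The groups did not overlap for 3 higher and 3 lower of the 33, against 14.1% and 36.0% of all wide probe sets. With narrow probe sets counted too, 24 of 121 were higher and 6 lower, against 17.9% and 16.7% of all probe sets. The 3 lower ones were the leading probe sets of Kcnj11, Kcnab2 and Kcnc1, and the 3 higher ones were further probe sets of Kcnma1, Kcnab1 and Dpp6.

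The third Kcnma1 probe set was at 7.37, 7.68, 7.72 and 7.53 under chow, against 7.11, 7.22, 7.23, 7.22 and 7.17 under powder. All chow arrays were above all powder arrays, and the difference was 0.38 ± 0.072 (1.31-fold, adjusted p = 0.00926 by limma over probe sets). It was called with any single array left out, and was 0.45 without chow 1. The leading probe set had the opposite sign, and the second was at 0.13 ± 0.10 (adjusted p = 0.337), called without chow 1 (0.24, adjusted p = 0.0426).

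The second Kcnab1 probe set was at 8.07, 8.04, 8.14 and 7.87 under chow, against 7.73, 7.81, 7.73, 7.82 and 7.79 under powder, again without overlap. It rose by 0.25 ± 0.053 (1.19-fold, adjusted p = 0.0123), while the leading one had the uncalled value of -0.16 given above. The second Dpp6 probe set was at 8.83, 8.77, 8.90 and 8.77 under chow, against 8.60, 8.56, 8.61, 8.73 and 8.65 under powder, and rose by 0.18 ± 0.042 (adjusted p = 0.016). The leading Dpp6 probe set was narrow and was called lower, by -0.000377. Both wide calls held with any single array left out.

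The other wide further probe sets were not called. Kcnip4 had a second one at 0.21 ± 0.11 (adjusted p = 0.184), opposite in sign to the leading one. Kcnc2 had 4, at -0.24 ± 0.092, 0.10 ± 0.097, 0.13 ± 0.13 and -0.07 ± 0.12, with the groups of the first of these not overlapping (adjusted p = 0.0755). Kcnd2 (0.09 ± 0.06), Kcnd3 (-0.03 ± 0.10), Kcnip2 (0.02 ± 0.014) and the mechanically gated 2-pore channel gene Kcnk2 (0.11 ± 0.11) had 1 each. Without chow 1 that of Kcnk2 was at 0.0093 and that of Kcnip2 at 0.0022.

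**Figure D4:**
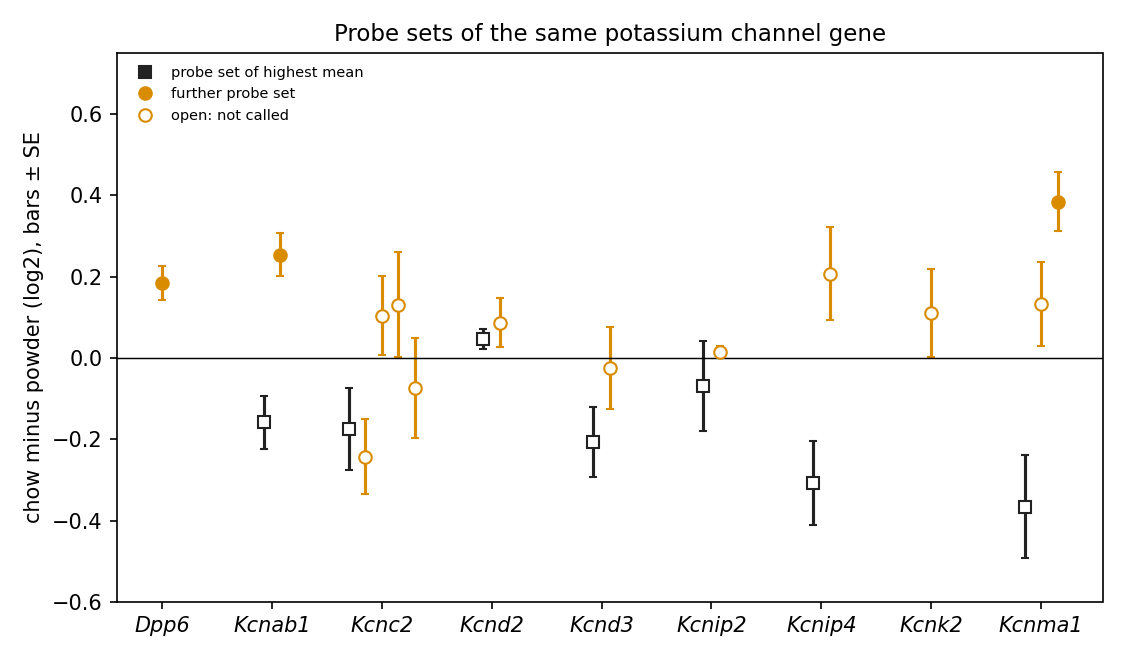
Difference in log2 value, chow minus powder, with bars of ± SE from limma over all probe sets, for every wide probe set of the 9 potassium channel genes that have a wide probe set beside the leading one; squares are the probe set of highest mean, circles further ones, and filled symbols passed an adjusted p under 0.05. The 3 filled circles (Dpp6, Kcnab1 and Kcnma1) lie above 0, and the squares lie below 0 except that of Kcnd2.

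The sign of the difference went with the rank of the probe set by mean. Among channel genes, 4 of 20 wide leading probe sets and 10 of 13 wide further ones were higher under chow. Over all named genes the shares were 27.7% of 2414 and 67.5% of 1019, and 210 of 440 genes with several wide probe sets had both signs (47.7%). This was therefore not particular to the channels. Where each probe set lies on its transcript is not given in the sources used here. A control gene with probe sets at both ends of its transcript, beta-actin, had a log2 difference of 3' over 5' end of 1.44 to 1.58 on the chow arrays and 1.55 to 1.70 on the powder arrays. For Gapdh it was 0.358 to 0.607 under chow and 0.499 to 0.657 under powder. The Gapdh 3' value was 12.379 on every array, so the Gapdh difference varied with its 5' value alone. With the beta-actin difference as a covariate 0 wide channel genes were called by limma, and the values became -0.14 for Kcnj11 (adjusted p = 0.0641), -0.19 for Kcnab2 (0.289) and -0.26 for Kcnc1 (0.113). It gave 0.31 for the third Kcnma1 probe set (0.143), 0.19 for the second Kcnab1 probe set (0.189) and 0.08 for the second Dpp6 probe set (0.269). The covariate itself was higher on most powder arrays than on the chow arrays. With it the SE rose from 0.066 to 0.107 for Kcnab2 and from 0.057 to 0.086 for Kcnc1. The share of all wide genes called with it is not given here.

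On narrow probe sets 10 of 54 channel genes were called higher under chow (18.5%) and 2 lower (3.7%), against 15.2% and 14.4% of all narrow genes. That made 10 higher (13.5%) and 5 lower of all 74, against a background of 14.2% and 18.8% of all genes. The higher ones were Kcna3 (0.000349), Kcne2 (0.000414), Kcnh3 (0.0011), Kcnh7 (0.000135), Kcnj4 (0.00019), Kcnj5 (0.000337), Kcnk2 (0.000278), Kcnk15 (0.000303), Kcnq1 (0.000201) and Kcnv2 (0.0002). The lower ones were Dpp6 (-0.000377) and Kcna6 (-0.000221), which both turned higher when the arrays were quantile normalized or had their medians subtracted. Those rescalings moved the split of called genes to 28 higher and 5 lower, and to 54 higher and 8 lower. None of these 12 differences reached 0.002 log2 units, and all were far below the smallest span of a wide gene. The calls of Dpp6, Kcne2, Kcnh7 and Kcnk2 held with any single array left out, and those of the other 8 did not. The groups overlapped for Kcnk15 and Kcna6 but not for the other 10. Further narrow probe sets did not always share the sign. The second of Kcne2 was called lower (-0.000477, adjusted p = 0.0209 by limma over probe sets). The third of Kcna6 was called higher (0.000454, adjusted p = 0.017). Those of Kcnj4 and Kcnj5 were called higher, as their leading ones were. Of all 74 genes 10 lay without overlap above powder and 4 below it, against 12.3% and 16.9% of all genes. The remaining 42 narrow genes, among them the delayed rectifier gene Kcnb2, the ERG channel gene Kcnh2 and the background channel genes Kcnk1, Kcnk3 and Kcnk9, were not called.

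Channel partners outside the Kcn symbols were listed as well, and 23 of 28 were measured, 7 on wide probe sets. Of these 7, 4 were lower under chow and 0 higher, against the 40.2% and 9.03% of all wide genes given above. Besides Abcc9 they were Cntnap2, the gene of Caspr2, which gathers Kv1 channels beside the node of Ranvier, Adam22, a receptor within Kv1 complexes, and Akap9, the kinase anchor named Yotiao that binds Kcnq1. Cntnap2 was at 9.28, 9.36, 9.45 and 9.45 under chow, against 9.82, 9.83, 9.64, 9.66 and 9.63 under powder (-0.33 ± 0.06, adjusted p = 0.00829). Adam22 was at 10.22, 10.19, 10.30 and 10.32 under chow, against 10.59, 10.49, 10.50, 10.42 and 10.40 under powder (-0.22 ± 0.047, adjusted p = 0.0131). Akap9 differed by -0.18 ± 0.023 (adjusted p = 0.00313).

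For Cntnap2, Adam22 and Akap9 the groups did not overlap and the calls held with any single array left out. Further probe sets divided them. A second wide Adam22 probe set was also lower (-0.33, adjusted p = 0.00125), whereas 2 further ones of Cntnap2 were higher (0.37 and 0.22, adjusted p = 0.00125 and 0.00154), as was a second of Akap9 (0.13, adjusted p = 0.0166). The other 3 wide partners, Akap5, Dlg1 and Dlg2, were not called, although the Dlg2 groups did not overlap (0.00502, adjusted p = 0.0951). Dlg4, narrow and not called on its leading probe set, was lower on a wide further one (-0.18, adjusted p = 0.0302 by limma over probe sets). Wide further probe sets of Dlg1 (0.20, adjusted p = 0.0548) and Vapb (0.26, adjusted p = 0.0561) had the opposite sign and were not called. Akap5 was at 7.74 on chow 1, between 6.37 and 6.57 on the other chow arrays and between 6.29 and 6.70 under powder. On narrow probe sets 1 of the 16 partners was called higher and 1 lower, against 15.2% and 14.4% of all narrow genes.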

How the data were processed

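Thalamus RNA from 4 chow and 5 powder samples was measured on single-colour arrays, with biotin-labelled cRNA made from 100 ng of total RNA, per the labels. The values the authors deposited were log2 expression values for each probe set. The log2 scale was read from their range of 5.37 to 14.0, and the labels do not state the background correction, summarisation, normalization or centring. Array medians were 7.39 to 7.40. Groups came from the sample titles, and 0 columns belonged to other samples. After 57 control probe sets were left out, 31042 remained, of which 20826 had 1 gene symbol in the platform annotation, 436 several and 9780 none listed. All 74 channel symbols were in the RefSeq table of GRCr8.

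The difference of chow from powder was fitted with limma 3.58.1 under R 4.3.3 (lmFit, eBayes, no covariates), over all genes and again over all rat probe sets. Differences are chow minus powder and are given ± SE. Folds are 2 raised to the difference. Signal over background and detection were not analysed here, and the number of arrays limits the precision. The steps were tested on simulated data.

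Named with values were every gene whose leading probe set spanned at least 0.01, any further wide probe set, called genes on narrow ones and, of the partners, Abcc8, Abcc9 and called wide genes. Other names were chosen after their values were seen. The members, the 0.01 limit and the lists were chosen with earlier results of these data known. Same-numbered samples of the groups had correlated deviations from -0.344 to 0.186, so the numbers were not taken as pairs. The alternatives tried were 19 in all, and the beta-actin covariate among them was chosen after seeing the data.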

Additional observations from a re-analysis of the deposited data

Results flagged for a closer look

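Among 74 groups of arrays tested on wide channel and called partner probe sets, 5 held an array far from the rest of its group by Dixon's test, where chance gives about 1 in 20. Kcnv1 was at 7.35 on chow 1, against 6.61 to 6.65 on the other chow arrays. Among the powder arrays, Kcnq5 was at 7.87 on powder 5 against 8.03 to 8.06 on the others, the second Kcnc2 probe set at 9.89 on powder 5 against 9.71 to 9.75, the fourth Kcnc2 probe set at 8.33 on powder 2 against 8.40 to 8.42, and the second Kcnip4 probe set at 8.94 on powder 4 against 8.63 to 8.72. Only the first of these lay on chow 1, the array with raised striatal markers.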

How the results depend on the processing

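As reported, 10 channel genes were called higher and 5 lower, 0 and 3 of them wide, with 24 and 6 probe sets. Rescaling moved the narrow genes most, since it shifts values by more than they span. Quantile normalization gave 28 higher genes, 1 higher and 5 lower wide genes and 45 higher probe sets, and subtracting array medians gave 54 higher and 8 lower genes, 8 lower wide genes and 91 higher probe sets. The narrow genes Dpp6 (0.02343 by quantiles and 0.006195 by medians), Kcna6 (0.02781 and 0.006351) and Abcc8 (0.007884 and 0.006449) turned higher, and probe set 2 of Kcnd3 was at 0.0005583 by quantiles. Quantiles also made Kcnd2 a higher call (0.0732, adjusted p = 0.0114), and medians made Kcnab1 (-0.152), Kcnd3 (-0.2006), Kcnj16 (-0.1714) and probe set 2 of Kcnc2 (-0.2368) lower calls. Leaving out the dimmest 25% of probe sets gave 6 higher genes, and array weights 5 lower wide genes. Taking the median of all probe sets for each gene gave 2 lower genes, 1 higher and 1 lower among those counted as wide, and turned Kcnab1 (0.04789), Kcnab2 (9.282e-05), Kcnc2 (0.1059), Kcnip2 (0.01571), Kcnma1 (0.1326), Kcnq5 (0.0002379), Dpp6 (0.09216), Kcna6 (4.001e-05), Kcne2 (-0.0004774) and Cntnap2 (0.3712). It also ended the calls of Kcnj11 (-0.0001289, adjusted p = 0.287), Abcc9 (-0.0001921, adjusted p = 0.0978), Akap9 (-0.02626, adjusted p = 0.195), Kcnk2 and Kcnv2. Leaving narrow probe sets out gave 1 higher gene, 3 higher probe sets, 6 lower wide genes and Dpp6 at 0.1847. An adjusted p under 0.1 gave 18 higher and 13 lower genes, 8 lower wide ones, and 37 higher and 15 lower probe sets. With the beta-actin covariate, 0 genes were called higher and 1 lower, 0 wide genes lower, and 2 probe sets higher and 1 lower, and Kcns3 was at -0.07252, probe set 2 of Kcnd3 at 0.1052, probe sets 3 and 4 of Kcnc2 at -0.04469 and -0.08137 and probe set 2 of Kcnip4 at -0.0569. With the replicate number as a block, limma called 0 genes and 0 probe sets in either direction, and Kcnj11 was at -0.1194 (adjusted p = 0.0948). That fit left out powder 5, which has no chow sample of its number, and spent further coefficients on the block. For the block and for the beta-actin covariate, the share of all genes called is not given here. Leaving out 1 array at a time gave 4 to 9 higher and 2 to 10 lower genes, 0 higher and 1 to 7 lower wide genes, and 15 to 22 higher and 3 to 11 lower probe sets. It took Kcnip2 through -0.191 (without chow 1) to 0.002215 (without chow 2), and Kcns3 through -0.005227 (without powder 2) and -0.001129 (without chow 3) to 0.147 (without chow 1). Probe set 5 of Kcnc2 ranged over -0.193 (without chow 3) to 0.02212 (without chow 1). Probe set 2 of Kcnd3 ranged over -0.09577 (without chow 2) to 0.03434 (without powder 2), with 0.03259 without chow 1. Beyond what is stated, the cause of these moves was not tested.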
